A study of Homo sapiens with 6 samples.

Results

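The ETS genes encode transcription factors that share a winged-helix DNA-binding domain and recognise a GGAA core. A set of 10 of these genes, ETV1, ETV4, ETV5, ERG, FLI1, SPDEF, EHF, ELF3, ELF5 and ETS1, was taken by symbol from a table of 58024 genes, and all 10 were found among the 28 human ETS genes listed there. The genes were compared between parental and enzalutamide resistant C4-2B cells, with 3 RNA-Seq libraries (replicates 0, 1 and 2) in each group. C4-2B is a human prostate cancer cell line of the LNCaP lineage. It came from a bone metastasis after C4-2 cells were transplanted into athymic nude mice. The C4-2 line had itself been obtained from LNCaP through growth in castrated nude mice. Resistant cells had been passaged for at least 6 months in enzalutamide, an antiandrogen drug, raised from 1 to 20 µM, and were afterwards kept in 5 µM. Parental cells were passaged beside them in dimethyl sulfoxide, which the labels give as 1% and the methods as a lower share. Both groups grew in RPMI medium with serum. RNA extraction is described with 10 µM enzalutamide, in wording that does not settle whether the parental cells also received it. Each group was 1 cell line, and no source used here says that the libraries came from separate cultures, so that p-values measure only the spread between these libraries, which may be technical.

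ETS factors differ mostly in where they are expressed. ETV1, ETV4 and ETV5 form the PEA3 group, which is known as an output of RAS and MAPK signalling and whose proteins are short-lived because the COP1 ubiquitin ligase marks them for degradation. EHF, ELF3 and ELF5 form the epithelial ESE group, and SPDEF is a factor of prostate and secretory epithelium. ERG and FLI1 are factors of endothelial and blood cells, and ETS1 of lymphoid and vascular cells. In prostate cancer, ERG, ETV1, ETV4 or ETV5 can be switched on when a rearrangement joins them to an androgen-driven gene such as TMPRSS2. In LNCaP cells the ETV1 locus of chromosome 7 lies rearranged into a region of chromosome 14 near MIPOL1 and FOXA1.

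The regulatory windows of ETV1, of the neighbouring pair EHF and ELF5, and of SPDEF are shown first, as RefSeq gives them for GRCh38.p14, because ETV1 is the rearranged gene and the other 3 are the members lower in resistant cells. The RefSeq promoter table held 6 of the 10 members (ELF3, SPDEF, ETV1, ELF5, EHF and ERG) and had no entry for ETV4, ETV5, FLI1 and ETS1. Each sequence runs 5′ to 3′ towards the start of the gene, bases within annotated exons are left out, and capitals mark GGAA, or TTCC where the core lies on the other strand. The window of ETV1 lies at chr7:13991426-13991675 on the minus strand and ends just before the annotated gene. The window of EHF lies at chr11:34624007-34624256 on the plus strand, and that of ELF5 at chr11:34511829-34511974 on the minus strand, both at starts inside the span annotated for the gene. The window of SPDEF lies at chr6:34556334-34556579 on the minus strand.
ETV1: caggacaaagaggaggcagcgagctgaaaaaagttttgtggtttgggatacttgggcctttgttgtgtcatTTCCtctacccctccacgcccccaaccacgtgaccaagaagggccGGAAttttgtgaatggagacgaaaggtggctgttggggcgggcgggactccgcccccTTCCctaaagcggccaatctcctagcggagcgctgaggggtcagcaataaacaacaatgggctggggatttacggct
EHF: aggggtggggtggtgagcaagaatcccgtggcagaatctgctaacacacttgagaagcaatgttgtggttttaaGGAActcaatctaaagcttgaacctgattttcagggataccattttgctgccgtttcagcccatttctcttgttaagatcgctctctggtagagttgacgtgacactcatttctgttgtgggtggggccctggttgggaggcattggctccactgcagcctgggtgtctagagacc
ELF5: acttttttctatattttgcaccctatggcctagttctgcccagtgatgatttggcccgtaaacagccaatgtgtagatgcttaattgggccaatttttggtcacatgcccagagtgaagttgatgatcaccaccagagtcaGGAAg
SPDEF: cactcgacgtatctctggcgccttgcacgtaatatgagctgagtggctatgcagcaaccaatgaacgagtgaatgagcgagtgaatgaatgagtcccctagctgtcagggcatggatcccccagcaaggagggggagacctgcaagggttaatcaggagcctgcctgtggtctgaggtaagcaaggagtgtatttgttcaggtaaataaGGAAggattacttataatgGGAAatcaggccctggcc

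The ETV1 window is 1 of 6 starts listed for this gene and held the core 3 times on both strands counted together, which is also the median over 35116 promoter entries cut to the same 250 bases. One of these lies within CCGGAA, a longer form of the core that 14.5% of the entries hold on either strand. The EHF window, 1 of 2 listed, held the core once, as did the 146 bases of ELF5, and the 246 bases of SPDEF held it 2 times. At least 1 core was present in 92.7% of all entries of 250 bases, in 79.6% when cut like ELF5 and in 92.4% when cut like SPDEF, so that its presence does not set these windows apart.

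Libraries summed to between 792975 and 870110 FPKM (fragments per kilobase of transcript, relative to library size), a unit that corrects for gene length and allows levels of different genes to be set side by side. Depth was estimated from the values that single reads leave, at 13300000 to 20100000 reads per library for fragments of 200 bases. The estimate is rough, since only 42.4% to 54.0% of the low values used came within 0.1 of a whole read. The tissue label was checked on 9 luminal prostate markers, all expressed in every library, with a sum of 4300.1 to 5058 FPKM in parental and 1115 to 1204 FPKM in resistant libraries. Of these, KRT8 was higher in resistant cells, 7 including KLK3 were lower and HOXB13 did not pass the test. The 11 endothelial and blood markers summed to at most 1.74 FPKM in any library, and PECAM1, CDH5, KDR, PTPRC and CD3E, which define these cells, were listed at 0 in every parental library and at no more than 0.213 FPKM in any resistant one. Basal markers (KRT5, KRT14, TP63 and KRT15) summed to 0.559 to 0.987 FPKM in parental and 1.78 to 1.86 FPKM in resistant libraries, and stromal markers to 7.87 to 10.1 and 7.88 to 12.6 FPKM. Single markers went opposite ways within these sums. KRT15 was higher (log2 fold change 3.22), and KRT14 was lower and listed at 0 in every resistant library. DCN was listed at 0 in every parental library and at 3.63, 3.78 and 4.35 FPKM in resistant ones, LUM was higher (2.75) and PDGFRB lower (-3.04). The part of such cells in the results was not tested.

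Of the 10 members, 8 reached the mean of 0.1 FPKM required for the test, and ERG and FLI1 did not. This mean was taken over both groups, and ETV1, ETV4 and ETS1 reached it only through their resistant libraries. Their parental means were 0.0212, 0.0402 and 0.0413 FPKM, so that whether they were tested depended on the groups compared. ETV1, ETV4, ETV5 and ELF3 were higher in resistant cells, EHF, ELF5 and SPDEF were lower, and ETS1 did not pass the test. The test was limma on log2(FPKM + 0.1) over 24468 genes, and a gene passed at a Benjamini-Hochberg adjusted p below 0.05. By the same test 44.4% of all genes differed, 22.1% higher and 22.3% lower in resistant cells, so that the 7 calls stand within a comparison of many differences. The groups did not overlap for the same 7 members, against 54.8% of all genes tested, of which the resistant values were all above for 26.6% of genes and all below for 28.1%. The median log2 fold change over all genes was -0.05. With 3 libraries a group, an exact two-sided permutation test of a single gene cannot go below p = 0.1, and all 7 reached that value. In bulk RNA, fewer cells of a kind and less RNA per cell cannot be told apart.

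**Figure D1:**
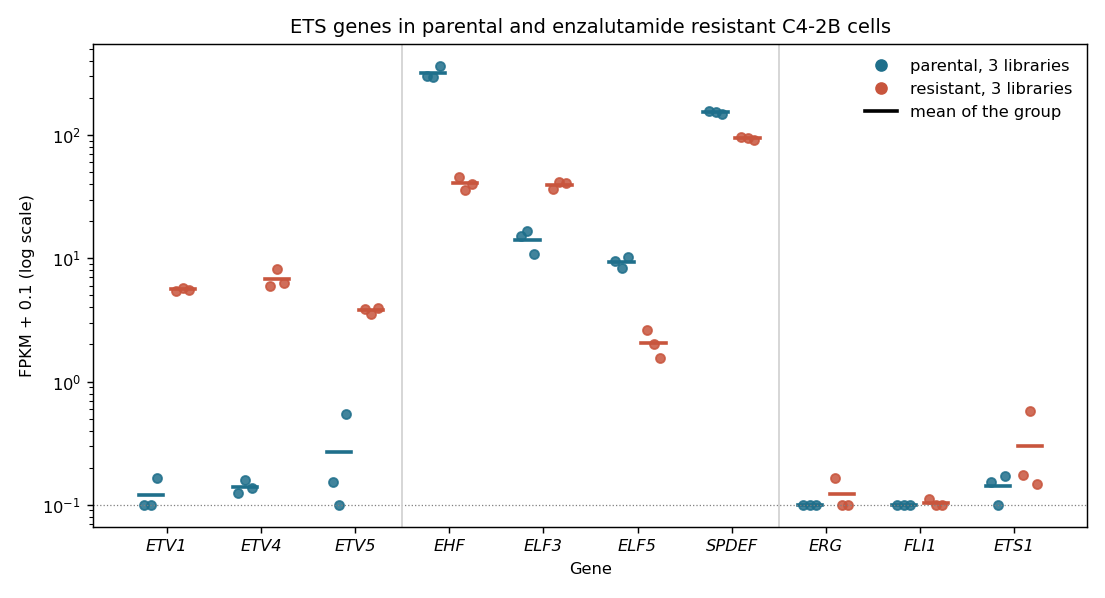
FPKM + 0.1 on a log axis for the 10 ETS genes, with 1 point per library, 3 libraries a group and a bar at the group mean; the dotted line is the level of a value listed at 0. ETV1, ETV4 and ETV5 lie near that line in parental cells, except ETV5 at 0.448 FPKM in replicate 2, and between 3.44 and 8.11 FPKM in resistant cells, while EHF, ELF5 and SPDEF lie lower and ELF3 higher in resistant cells.

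The PEA3 group went from near the floor of the table to a moderate level. ETV1 (chr7:13891229-13991425, GRCh38, minus strand) was listed at 0 in parental replicates 0 and 1 and at 0.0636 FPKM in replicate 2. In resistant replicates 0, 1 and 2 it was at 5.35, 5.66 and 5.48 FPKM. All resistant values were thus far above the highest parental value and close to one another. The log2 fold change was 5.57 (SE 0.33, 95% interval 4.76 to 6.38, adjusted p = 6.15e-05), on a scale where the pseudocount of 0.1 FPKM sets the parental level. At the estimated depths, 1 read over the 9592 exonic bases of ETV1 was worth 0.00530 to 0.00800 FPKM, so that reads of ETV1 in parental cells were few. The values are given per gene and do not separate a rearranged copy of ETV1 from another. Whether these cells carry the rearrangement of the lineage was not tested. ETV1 as a whole was at or near 0 in the parental libraries.

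ETV4 (chr17:43527844-43579620, minus strand) was at 0.0256, 0.0582 and 0.0368 FPKM in parental cells. Its resistant values were 5.91, 8.11 and 6.17 FPKM, with replicate 1 the highest. The log2 fold change was 5.60 (SE 0.29, adjusted p = 3.79e-05), close to that of ETV1 at this pseudocount. At a pseudocount of 0.01 FPKM the changes were 7.11 for ETV4 and 8.15 for ETV1. At the estimated depths, 1 read of ETV4 was worth 0.0150 to 0.0227 FPKM, so that its parental reads were few as well. In the annotation ETV4 shares its locus with DHX8, and the labels name both an unstranded and a stranded library kit, so that reads of the overlap may not be told apart. ETV5 (chr3:186046314-186110318, minus strand) was at 0.0530, 0 and 0.448 FPKM in parental and at 3.77, 3.44 and 3.87 FPKM in resistant cells. Parental replicate 2 stood above the other two, yet below every resistant value by a wide margin. The log2 fold change of ETV5 was 4.22 (SE 0.65, 95% interval 2.66 to 5.78, adjusted p = 0.00251), and 4.94 without parental replicate 2. Among all genes tested, the log2 fold changes of ETV1 and ETV4 were each at the percentile 98.8 and that of ETV5 at 97.0. ETV1 and ETV4 are in this ranking only through their resistant values. Within resistant libraries the 3 genes kept a narrow ratio, with ETV4 at 1.10, 1.43 and 1.13 times the FPKM of ETV1 and ETV5 at 0.705, 0.607 and 0.706 times. Among genes above 0, ETV1 lay between the percentiles 55.1 and 60.8 of each resistant library, ETV4 between 56.6 and 61.9 and ETV5 between 49.2 and 57.0, so that all are mid-range transcripts there.

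The ESE group did not move as one. EHF (chr11:34621093-34663288, plus strand), which restrains stem-like and mesenchymal traits in prostate epithelium, was at 302, 297 and 364 FPKM in parental cells and at 45.5, 35.7 and 40.0 FPKM in resistant cells. It was the ETS gene with the highest level in every parental library, and no resistant value came near the parental range. The level fell from 321 ± 37.5 to 40.4 ± 4.95 FPKM (mean ± SD, n = 3), a log2 fold change of -2.99 (SE 0.12, adjusted p = 1.80e-05), which makes parental cells 7.94 times as high. Only 3.32% of all genes tested had a lower log2 fold change. EHF still ranked between the percentiles 84.4 and 90.0 among genes above 0 in the resistant libraries, after 98.7 to 99.0 in the parental ones.

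ELF5 (chr11:34478791-34525193, minus strand), a factor of mammary and other secretory epithelia, starts 95.9 kb from EHF on the opposite strand. It was at 9.35, 8.25 and 10.2 FPKM in parental and at 2.51, 1.90 and 1.46 FPKM in resistant cells. The groups did not overlap, and the log2 fold change was -2.21 (SE 0.23, adjusted p = 4.96e-04). Both genes of this pair were therefore lower in resistant cells, while the level of EHF was 18.1 to 36.0 times that of ELF5 within each library. ELF3 (chr1:202007945-202017183, plus strand), an epithelial factor induced by inflammatory signals, went the other way. Its values were 15.1, 16.5 and 10.8 FPKM in parental and 36.5, 41.5 and 40.5 FPKM in resistant cells. The rise from 14.1 ± 2.96 to 39.5 ± 2.69 FPKM (SD, n = 3) was a log2 fold change of 1.50 (SE 0.17, adjusted p = 7.17e-04). EHF was at 20.0, 18 and 33.7 times the level of ELF3 in parental libraries and at 1.25, 0.858 and 0.986 times in resistant libraries, so that the pair came to about the same level.

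SPDEF (chr6:34537802-34556333, minus strand), which drives secretory differentiation, changed least among the 7. It was at 158, 154 and 148 FPKM in parental and at 95.6, 94.9 and 91.5 FPKM in resistant cells. The libraries of each group lay close together and the groups were well apart. The log2 fold change was -0.71 (SE 0.06, adjusted p = 2.20e-04), and 28.5% of all genes had a lower one. This change is less than 2-fold, unlike those of the other 6 called members. Of all genes tested, 28.5% passed the test with a difference of at least 2-fold.

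The vascular and blood members stayed at the floor of the table. ERG (chr21:38380027-38661780, minus strand), the usual partner of TMPRSS2 in prostate cancer, was listed at 0 in 5 of the 6 libraries and at 0.0654 FPKM in resistant replicate 0. FLI1 (chr11:128686535-128813267, plus strand) was likewise at 0 except for 0.0115 FPKM in the same library, which was also the one with the most genes above 0 (27153). No fold is given for either gene. ETS1 (chr11:128458761-128587558, minus strand) was at 0.0524, 0 and 0.0715 FPKM in parental and at 0.0760, 0.479 and 0.0463 FPKM in resistant cells. Resistant replicate 1 stood apart from the others and the groups overlapped, and the log2 fold change of 0.84 had an interval from -0.78 to 2.45 (adjusted p = 0.360), wide enough to hold a change in either direction. Markers of endothelial and blood cells were near 0 in these same libraries, as given above.

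The order of the members changed with resistance. In parental cells it ran EHF, SPDEF, ELF3 and ELF5, each with all 3 values above those of the next, and then ETV5, ETS1, ETV4, ETV1, FLI1 and ERG, whose neighbours overlapped. In resistant cells it ran SPDEF, then EHF and ELF3, which overlapped, then ETV4, ETV1, ETV5 and ELF5, each above the next, and last ETS1, ERG and FLI1, which overlapped. Summed over all 28 ETS genes the level was 641, 661 and 686 FPKM in parental and 373, 381 and 367 FPKM in resistant libraries. The share of this sum taken by EHF and SPDEF together was 71.5 ± 3.27% in parental and 36.0 ± 1.83% in resistant cells (SD, n = 3). EHF alone went from 48.3 ± 4.25% to 10.8 ± 1.44%, whereas SPDEF took 23.2 ± 1.50% and 25.1 ± 0.439%. ELF3 went from 2.14 ± 0.494% to 10.6 ± 0.685%. The PEA3 group together took at most 0.0800% in any parental library and 4.26 ± 0.240% in resistant cells, and the 18 ETS genes that are not members went from 24.9 ± 2.99% to 48.6 ± 1.08%. These shares do not depend on the scaling between libraries, and a share can rise because another falls.

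**Figure D2:**
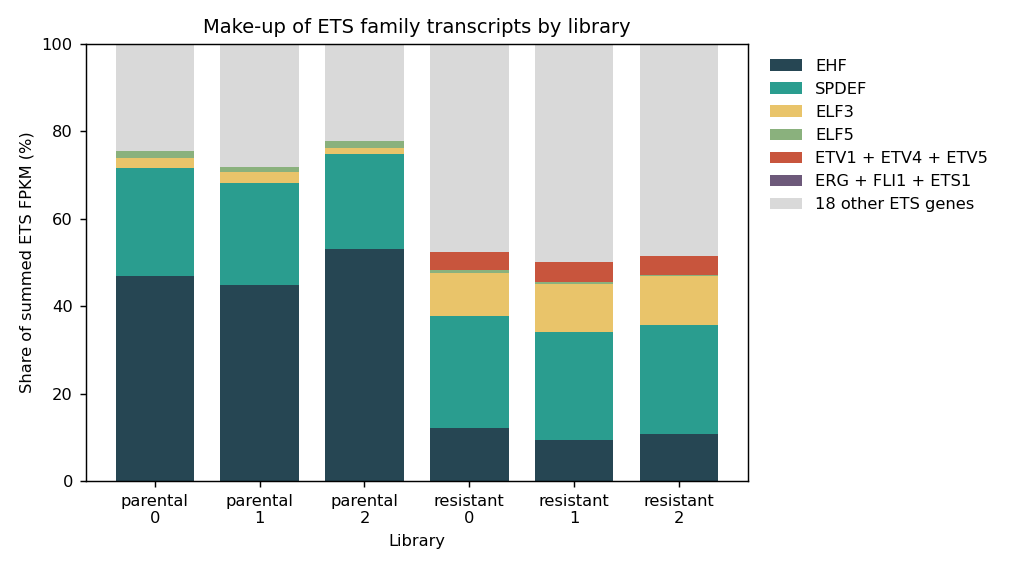
Stacked bars give the percent of the summed FPKM of the 28 ETS genes taken by each member or group of members in each of the 6 libraries. EHF takes 44.9% to 53.1% in parental and 9.35% to 12.2% in resistant libraries, SPDEF 21.7% to 25.6% in all 6, and the PEA3 group (ETV1, ETV4 and ETV5) becomes visible only in resistant libraries.

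Of the 18 ETS genes that are not members, 17 were tested, 6 were higher and 2 were lower in resistant cells, and ETV3L was listed at 0 in every library. Over the whole family 10 of 25 tested genes were higher and 5 lower, which is 40.0% and 20.0%, against the 22.1% and 22.3% of all genes. ETV7, a repressor related to ETV6, had the largest increase outside the members, with 0.563, 0.357 and 0.264 FPKM in parental and 2.83, 2.39 and 2.89 FPKM in resistant cells (log2 fold change 2.54, SE 0.32, adjusted p = 0.00113). SPIC, a factor of macrophages, rose by a log2 fold change of 2.15, ELF4 by 1.75 and ETS2, the close relative of ETS1, by 1.50. ERF, a repressor that MAPK signalling inactivates and that competes for ETS sites, rose from 16.0, 10.4 and 18.1 FPKM to 39.6, 41.9 and 38.4 FPKM, a log2 fold change of 1.46. ELF2 rose by 0.39, a call that was lost without parental replicate 2 (0.31), without resistant replicate 1 (0.34) or in a fit with no variance trend. ELK4, a partner of the serum response factor that androgen induces in prostate cells, fell from 31.8, 35.6 and 30.9 FPKM to 14.1, 13.3 and 15.3 FPKM (log2 fold change -1.20, adjusted p = 2.15e-04). FEV, a factor of serotonin neurons, had a log2 fold change of -0.81.

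GABPA, also chosen after its values were seen, just missed the threshold, with a log2 fold change of 0.63 and an adjusted p of 0.0528. ETV6 was chosen in the same way, because 1 library decides its value: it was at 7.15, 43.7 and 5.70 FPKM in parental and 4.62, 4.34 and 4.81 FPKM in resistant cells. Its log2 fold change of -1.39 did not pass the test and was -0.47 without parental replicate 1. The PEA3 genes thus had the 3 largest increases of the ETS family, and EHF and ELF5 the 2 largest decreases, in the fit reported here.

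**Figure D3:**
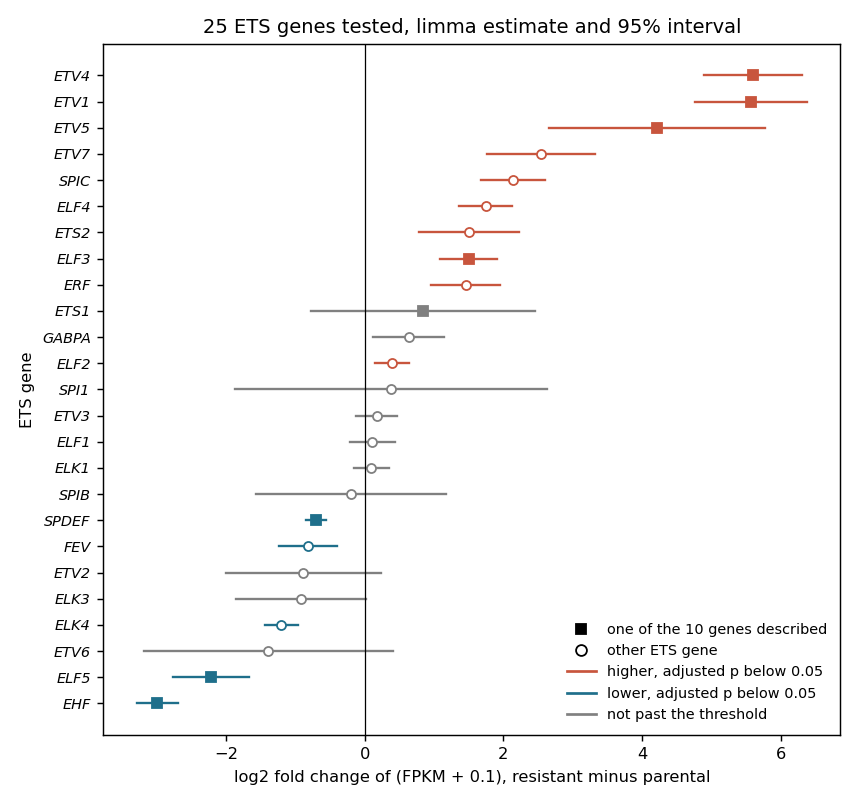
Log2 fold change of (FPKM + 0.1), resistant minus parental, for the 25 ETS genes tested, with limma's 95% interval; squares are the members, circles the other ETS genes, and colour gives the call. ETV4 and ETV1 lie at 5.60 and 5.57, EHF at -2.99, and the grey genes were not past the adjusted threshold.

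The genes around the PEA3 factors were looked at in lists by their role. PEA3 proteins are removed by the COP1 ligase (RFWD2 in the table) with DET1, DDB1, CUL4A, CUL4B, RBX1 and the adaptors TRIB1 and TRIB2, and their genes are repressed by CIC with ATXN1 and ATXN1L. Of these 11 genes, 3 were higher, 3 lower and 5 not past the threshold, with a median log2 fold change of -0.01. The share called, 54.5%, is near the 44.4% of all genes, and only 1 gene was lower without parental replicate 0 or 2 or resistant replicate 0 or 1. TRIB1 rose from 9.21, 5.66 and 6.79 FPKM to 101, 93.2 and 104 FPKM (log2 fold change 3.79, SE 0.18, adjusted p = 2.68e-05), while its relative TRIB2 fell (-2.92, SE 0.28). DDB1 rose by 0.84, and RFWD2 itself, named although it is not among the 3 with the smallest adjusted p, by 1.03. CIC, the repressor of the PEA3 genes, did not pass the test, with 12.2, 11.9 and 15.0 FPKM in parental and 13, 16.5 and 14.9 FPKM in resistant cells (log2 fold change 0.19). Both adaptors of the same ligase thus moved in opposite directions.

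Of 11 genes known as outputs of MAPK signalling, which often move with ETV4 and ETV5, 6 were higher and 3 lower in resistant cells. Their median log2 fold change was 1.42. The share called was 81.8%, against 44.4% of all genes. CCND1, the cyclin of the G1 phase, rose from 296, 257 and 268 FPKM to 1678, 1787 and 1812 FPKM (log2 fold change 2.68, SE 0.07). DUSP4 and PHLDA1, feedback genes of the same pathway, fell by 3.67 and 2.99 on the log2 scale. Chosen after their values were seen, the feedback inhibitors SPRY4 and DUSP6 rose by 4.14 and 4.03, so that 2 phosphatases of the list, DUSP4 and DUSP6, went opposite ways. DUSP6 was at 0.173, 1.27 and 0.0938 FPKM in parental cells, where replicate 1 stood apart, and at 6.02, 5.93 and 8.38 FPKM in resistant cells. Of 9 proteases and their receptors with ETS sites described in their promoters, 5 were tested. MMP14 (3.36), PLAUR (2.96) and MMP9 (1.72) were higher by the log2 fold changes given. Of these calls, 2 were left without any one library except parental replicate 1. The share of the tested proteases called was 60.0%, against 44.4% of all genes. MMP13, chosen after its values were seen, had all resistant values below the parental ones but just missed the threshold (log2 fold change -1.82, adjusted p = 0.0509). MMP14 was at 0.0142, 0 and 0 FPKM in parental and only 0.877, 1.24 and 0.851 FPKM in resistant cells. All 9 together summed to at most 7.90 FPKM in any library.

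Most of the genes looked at that supply the 5′ end of ETS fusions in prostate cancer were lower in resistant cells. Of 10 such genes, 9 were lower in resistant cells and none was higher, with a median log2 fold change of -1.57, and DDX5 did not pass the test. The share lower was 90.0%, against 22.3% of all genes. Such a decrease was not particular to this list, as 7 of the 9 luminal markers were lower too. KLK2 and TMPRSS2 belong to both lists. SLC45A3 fell from 170, 160 and 159 FPKM to 29.1, 29.0 and 28.7 FPKM (log2 fold change -2.49, SE 0.06), KLK2 by 2.49 and ACSL3 by 3.09 on the log2 scale. TMPRSS2, named for its part in ERG fusions, was at 267, 247 and 262 FPKM in parental and at 66.8, 59.2 and 68.4 FPKM in resistant cells (log2 fold change -2.0). ERG stayed at or near 0 in both. Of the genes of ERG turnover, CUL3 (0.53) and the deubiquitinase USP9X (0.41) were higher, and SPOP, the adaptor of the ligase, had a log2 fold change of -0.29 that did not pass the test. Only 1 of the 3 was higher without parental replicate 1 or 2 or resistant replicate 1 or 2. The share of this list called was 66.7%, against 44.4% of all genes.

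SPDEF is known for secretory genes, and of 9 such genes 7 were tested, 2 were higher and 2 lower, with a median log2 fold change of -0.85. Only 1 was higher without any one of parental replicates 1 and 2 or resistant replicates 0, 1 and 2. The share of the tested secretory genes called was 57.1%, against 44.4% of all genes. AGR2, a disulfide isomerase of secretory cells, fell from 49.6, 45.6 and 64.5 FPKM to 1.58, 2.71 and 2.07 FPKM (log2 fold change -4.60, SE 0.23). TFF3, a trefoil peptide, was at 3.95, 3.78 and 4.28 FPKM in parental cells and listed at 0 in every resistant library. CREB3L1, a factor of the secretory pathway, rose by 2.28, from levels under 0.165 FPKM. The decrease of AGR2 was thus far larger than the -0.71 of SPDEF.

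**Figure D4:**
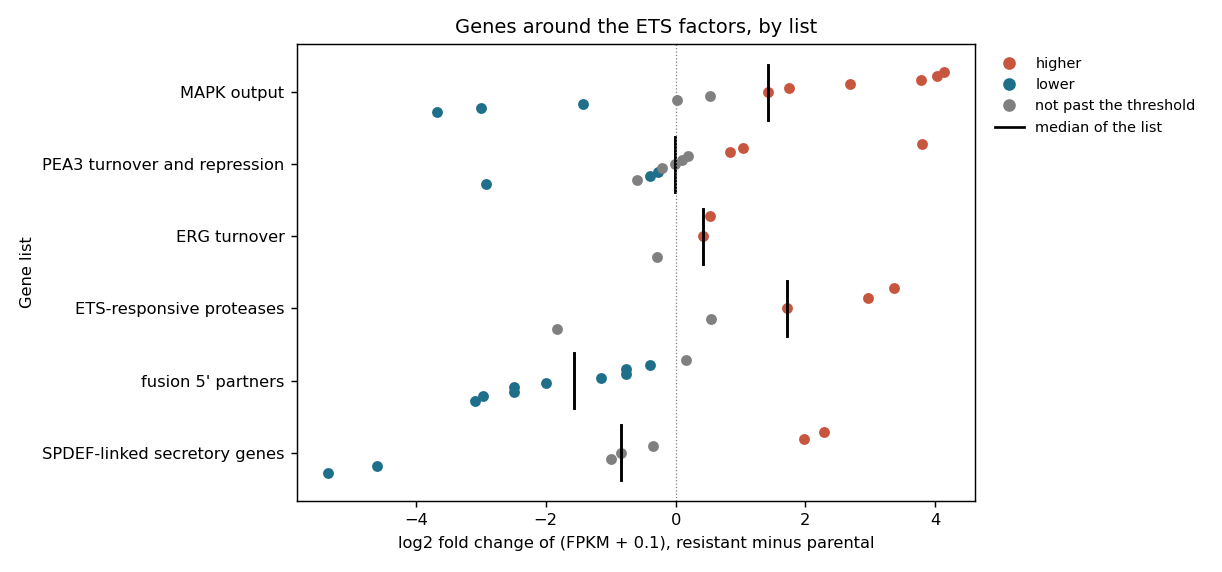
Each point is 1 tested gene of a list, placed by its log2 fold change of (FPKM + 0.1), resistant minus parental, coloured by its call, with a bar at the median of the list. Fusion 5′ partners lie left of 0 except DDX5 (0.16), the MAPK list spreads from -3.67 to 4.14, and the leftmost secretory gene is TFF3, whose place depends on the pseudocount because it was listed at 0 in resistant cells.

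The neighbourhood of ETV1 was described on both chromosomes of the rearrangement. On chromosome 7, within 3 Mb of the start of ETV1, a distance chosen after values had been seen, 13 other protein-coding genes are described. All 4 at lower coordinates were higher in resistant cells, against 22.1% of all genes. TMEM106B rose from 6.73, 7.36 and 6.14 FPKM to 19.7, 23.1 and 16.2 FPKM (log2 fold change 1.52). VWDE (3.86), SCIN (4.61) and AC005281.1 (1.56) rose as well. AC005281.1 was near the floor, at 0, 0.0785 and 0 FPKM in parental and 0.245, 0.192 and 0.350 FPKM in resistant cells. SCIN, which encodes an actin-severing protein and starts 1421 kb from ETV1, was at 0.320, 0.276 and 0.0300 FPKM in parental and at 6.35, 7.43 and 6.07 FPKM in resistant cells. Against 22.1% of all genes higher and 22.3% lower, the 9 at higher coordinates held 2 higher, 4 lower and 3 not past the threshold. The nearest of these, DGKB, was at 0.734, 1.20 and 0.842 FPKM in parental and 0.110, 0.0123 and 0.225 FPKM in resistant cells (log2 fold change -2.35), and AGMO, the next, also fell (-2.71). The direction therefore differed between the nearest protein-coding genes described on either side of ETV1, while AC005019.2, a pseudogene 120 kb away at lower coordinates and chosen after its values were seen, had a log2 fold change of -0.44 that did not pass the test. MEOX2 was listed at 0 throughout. AGR2, given above with the secretory genes, starts 2842 kb from ETV1 and is among the 4 lower genes at higher coordinates.

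On chromosome 14, 8 of 9 genes around the insertion region were tested, and 50.0% of them were called, near the 44.4% of all genes. Of these 8, 2 were higher and 2 lower, with a median log2 fold change of 0.27. Only 1 was higher without parental replicate 0 or resistant replicate 0 or 2, and only 1 was lower without any one parental library. SSTR1, a somatostatin receptor, rose from 0.165, 0.118 and 0.0874 FPKM to 3.89, 3.90 and 4.42 FPKM (log2 fold change 4.23, SE 0.29, adjusted p = 9.62e-05). TTC6 fell by 1.54 on the log2 scale and GEMIN2 rose by 0.57. MIPOL1 itself, named because the rearrangement lies there, was at 26.8, 27.7 and 35.0 FPKM in parental and 36.1, 35.1 and 40.6 FPKM in resistant cells, and its log2 fold change of 0.33 did not pass the test (adjusted p = 0.0827). FOXA1 had a log2 fold change of -0.16 and did not pass either. MIPOL1 was thus well expressed in the parental libraries in which ETV1 was listed at or near 0.

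**Figure D5:**
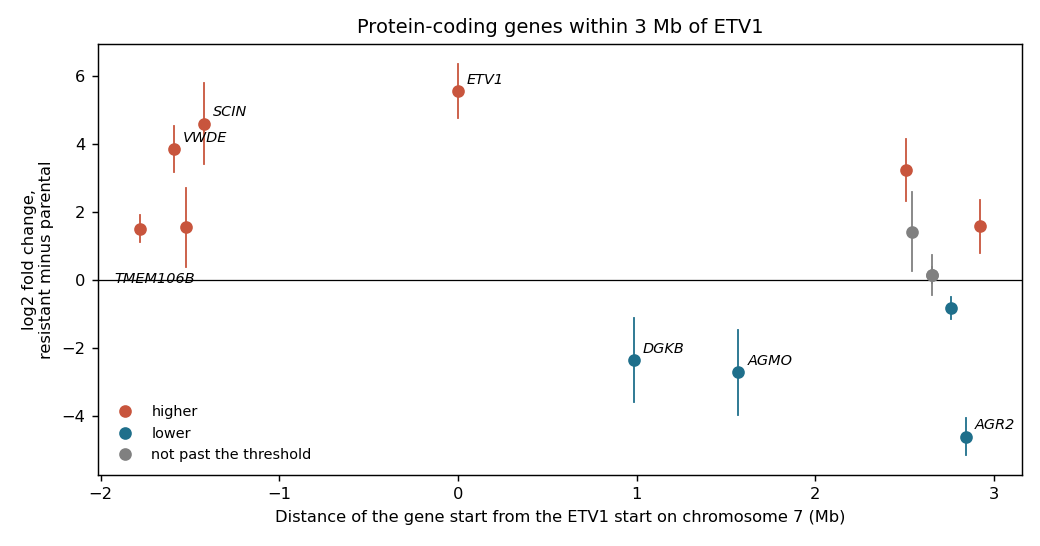
Log2 fold change with 95% interval, resistant minus parental, for ETV1 and the 13 other protein-coding genes described within 3 Mb, placed by the distance of their start from that of ETV1 in Mb. The 4 genes to the left all lie above 0, from 1.52 to 4.61, and DGKB and AGMO, the nearest to the right, lie at -2.35 and -2.71.

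The genes whose pattern over the 6 libraries was most like that of ETV1 were found by the root mean square distance of the log2 values after each gene's mean was taken off. The nearest 5 were GNB3 (0.139), SNTB1 (0.149), SLC5A5 (0.151), AKR1C2 (0.154) and ATF7IP2 (0.174), in log2 units. GNB3, a G protein subunit, was at 0.120, 0.0731 and 0.180 FPKM in parental and at 9.17, 11.0 and 11.2 FPKM in resistant cells. SLC5A5, the sodium iodide symporter, was at 0, 0.0190 and 0.0458 FPKM in parental and 6.08, 6.58 and 5.34 FPKM in resistant cells. None of the 5 lies on chromosome 7. With 6 libraries in 2 groups, a small distance means mainly a like difference between the groups.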

How the data were processed

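RNA-Seq libraries of C4-2B cells were analysed, 3 parental and 3 enzalutamide resistant. Per the methods, the authors used TrimGalore 0.4.3 on 50 bp single-end reads, STAR 2.5.3 for alignment to GRCh38, and Cufflinks 2.2.1 with GENCODE 25 for the deposited FPKM values. The submitters' processing notes name other trimming tools and a mouse build, while 99.9% of the matched gene identifiers lie at their GRCh38 positions. The table names no unit and holds no counts, so no count test or counting interval was possible, and 0 was read as listed at 0. Values were not scaled further. Of the luminal markers and of the genes around ETV1, 1 gene each is not reported here.

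The comparison used limma 3.58.1 (lmFit, eBayes with trend; R 4.3.3) on log2(FPKM + 0.1), with Benjamini-Hochberg adjustment and a threshold of 0.05. It covered genes whose mean over the libraries of both groups reached 0.1 FPKM. All p values are two-sided. Positions and exonic lengths came from GENCODE 44. No pair of libraries held identical values, and 12 reference genes were above 0 in every library.

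The members and lists were chosen with earlier results of these data known. Named were all members, the other ETS genes past the threshold, per list the 3 genes of lowest adjusted p, genes beside a member and the 5 genes most like ETV1. Other genes, among them RFWD2, CIC, DDX5, GABPA, ETV6, TMPRSS2, MIPOL1 and FOXA1, were named after their values were seen. Alternatives covered pseudocount, filter, scaling, removal of short RNA genes, variance trend, a replicate block, each library left out and a 2-fold threshold.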

Additional observations from a re-analysis of the deposited data

How the results depend on the processing

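ETV1, ETV4, ETV5, ELF3, EHF, ELF5 and SPDEF kept their direction and passed the test under all 15 alternatives that refitted the data. The size of the PEA3 changes depended on the pseudocount, since their parental values are near 0. At a pseudocount of 1 FPKM the log2 fold change of ETV1 was 2.67, and at 0.01 FPKM it was 8.15. That of ETV4 was 2.88 and 7.11, and that of ETV5 was 2.03 and 5.81. With each library left out in turn, ETV1 ranged from 5.45 to 5.81 and ETV5 from 3.71 to 4.94. EHF ranged from -3.08 to -2.89 over all alternatives. When at least a 2-fold difference was required as well, the ETS genes lower in resistant cells were 3 instead of 5, and SPDEF and FEV were the ones lost. This stricter rule was met by 28.5% of all genes. GABPA passed the test under 5 alternatives. With each library left out in turn, SPI1 ranged from -0.047 to 1.00 and SPIB from -0.51 to 0.16, both with a change of sign, which was to -0.047 and 0.12 without parental replicate 1. Neither passed the test. Counts in small lists moved as well. PEA3 turnover genes called lower ranged from 1 to 3, ERG turnover genes and secretory genes called higher each from 0 to 2, proteases called higher from 1 to 3, chromosome 14 genes called higher from 1 to 3 and lower from 1 to 2, genes of the ETV1 locus called lower from 0 to 2, and fusion partners called lower from 6 to 9.

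No pairing by replicate number was seen in the values, as same-numbered libraries had correlations of their deviations of 0.00802, 0.0165 and -0.00301. These correlations cannot tell whether same-numbered libraries were cultured or handled together. With the replicate number as a replicate block, 9463 instead of 10868 genes passed the test, and 4 members were higher and 3 lower as without it. Under the block, PEA3 turnover genes called lower and ERG turnover genes called higher were 1 each. The table gives FPKM with no counts, so that the precision of the near-0 values of ETV1, ETV5, ERG, FLI1 and ETS1 is not known.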

Other observations

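The genes around EHF and ELF5 on chromosome 11 were looked at after their values were seen. Within 1 Mb of the start of EHF, 13 other protein-coding genes were tested, ELF5 among them. In resistant cells 2 were higher, 4 lower and 7 not past the threshold. Of all genes, 44.4% were called, 22.1% higher and 22.3% lower. CD44, a cell surface receptor for hyaluronan that starts 518 kb from EHF, was at 0.0120, 0.543 and 0.181 FPKM in parental and at 23.7, 24.1 and 32.8 FPKM in resistant cells (limma log2 fold change 6.61, SE 0.61). CAT, which encodes catalase and starts 182 kb away on the side of ELF5, rose from 40.3, 40.2 and 44 FPKM to 65.5, 72.9 and 78.6 FPKM (0.80, SE 0.09). FJX1 fell from 3.95, 4.28 and 2.85 FPKM to 0.217, 0.424 and 0.278 FPKM (-3.23, SE 0.32). CAPRIN1 and NAT10 fell by 0.28 and 0.41 on the log2 scale. With all gene types counted, 17 other genes were tested, of which 3 were higher, 7 lower and 7 not past the threshold. The shares over all genes were again 22.1% higher and 22.3% lower. The nearest tested genes on the side of EHF away from ELF5 are 2 pseudogenes, and both were lower. RP11-350D17.3 (88.5 kb from EHF) had a log2 fold change of -3.66, and RP4-743O11.1 (122 kb) was at 0.526, 3.39 and 0.771 FPKM in parental cells and listed at 0 in every resistant library.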
